A study of Ceratotherium simum with 9 samples.

Results

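The miRNAs described here are eca-miR-205, eca-miR-31 and hsa-miR-203a-3p, 3 of the 3886 mature miRNA names in a small-RNA data set of extracellular vesicles (EVs) from the follicular fluid (FF) of the southern white rhinoceros (SWR). They were chosen by name, as the miRNAs known for stratified epithelium, and each had a single entry for its main mature arm (eca, bta and hsa mark horse, cattle and human entries). The 9 libraries came from follicles grouped by diameter before aspiration, with 3 libraries each for growing follicles (G group, 11 to 17 mm), dominant follicles (D group, 18 to 29 mm) and pre-ovulatory follicles (P group, 30 to 34 mm). All groups shared the same 2 females, both given the progestin chlormadinone acetate by mouth and then Deslorelin, an analog of GnRH, before transrectal ovum pick up, with each follicle rinsed with a flush that held heparin. Ages are not given in the sources used here. EVs of the 2 animals were pooled in every library, and the methods call the 3 libraries of a stage technical replicates in one place and biological replicates in another, so each p-value speaks to the spread among these libraries alone, which may be technical. The values are CPM, read counts scaled to library size and adjusted by TMM, and the whole reads recovered from them.

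Mature miRNAs guide the silencing complex to messenger RNAs mainly through the seed, bases 2 to 8 from the 5′ end. miR-205 is abundant in the basal layers of skin and other stratified epithelia and is known for repressing ZEB1 and ZEB2, transcription factors that switch off epithelial genes. miR-203 is known from mouse skin for repressing the stem cell factor p63 as keratinocytes leave the basal layer. miR-31 is a miRNA of proliferating keratinocytes, raised in wounded and inflamed skin. EVs in FF carry small RNAs of granulosa and theca cells and of cells and fluid from outside the follicle. No messenger RNA was measured, so the keratins that define stratified epithelium could not be looked at, and the 3 miRNAs are called here by their names.

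The mature sequences of miR-205 and miR-31 are shown with the seed in capitals, because a read was assigned with up to 2 mismatches and similar miRNAs could then share reads. They come from the supplementary tables of the study, which list 44 miRNAs. hsa-miR-203a-3p is not among the 44, and its sequence is not shown.
eca-miR-205: tCCTTCATtccaccggagtctg
eca-miR-31: aGGCAAGAtgctggcatagct
None of the other listed miRNAs had the seed of miR-205 or of miR-31. The closest listed sequence differed from miR-205 at 8 aligned bases and from miR-31 at 7 aligned bases, against the 2 mismatches allowed. Names outside the 44 were not compared, so sharing of reads with them was not tested.

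Recovered reads numbered from 18384 to 149281 a library (median 38258), and a single read stood for 5.64 CPM in the deepest G library, G3, and for 38.6 CPM in P2. A library with 0 reads of a miRNA allows up to 3 reads, or 16.9 CPM in G3 but 115.9 CPM in P2, and this limit and the intervals of read ratios cover counting error only. G1 stood apart from its own stage: across the 417 miRNAs tested its levels correlated with G2 and G3 at r = 0.71 and 0.72, and with the P libraries at r = 0.77 to 0.82. In D2, 71.8% of the reads came from eca-miR-148a, and in G1 34.97% came from bta-miR-11980. Results that rest on G1 are given with and without it. The granulosa miRNAs miR-21 and miR-132 had reads in every library.

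The 3 miRNAs had similar totals over the 9 libraries, with 383 reads of eca-miR-205, 373 of eca-miR-31 and 367 of hsa-miR-203a-3p. By mean CPM they ranked 85, 89 and 108 among the miRNAs of the table. Their distribution over the stages differed. miR-205 and miR-31 were found together in 5 libraries and were at or near 0 in G1 and in all P libraries, and miR-203a-3p had reads in all G and D libraries and in P3.

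eca-miR-205 had 0 reads in G1, 90 in G2 and 93 in G3. It had 74, 61 and 65 reads in the libraries D1, D2 and D3, and 0 reads in each P library. In CPM the levels were 0, 3013 and 525 in the G group and 2013, 1319.7 and 1494 in the D group. The mean was 1179 ± 1609 CPM in G, 1609 ± 361 CPM in D and 0 CPM in P (SD, n = 3 each). The D libraries were alike, the G libraries were spread over the whole range, and the P group did not overlap with the D group. At the mean level of the D group, P1, P2 and P3 would have held 86.1, 41.6 and 63.9 reads of miR-205 at their depths, and G1 would have held 58.9. In G2, where its level was highest, miR-205 ranked 37 of 323 miRNAs detected, and in the D libraries it ranked between 62 and 82.

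eca-miR-31 had 0 reads in G1, 65 in G2 and 114 in G3. There were 66, 58 and 68 reads in the libraries D1, D2 and D3, and 1, 1 and 0 reads in P1, P2 and P3. The levels were 0, 2176 and 643 CPM in the G group, 1795, 1255 and 1563 CPM in the D group, and 18.7, 38.6 and 0 CPM in the P group. The mean was 939.7 ± 1118 CPM in G, 1538 ± 271 CPM in D and 19.1 ± 19.3 CPM in P (SD, n = 3 each). The high and low libraries were those of miR-205: G2 was the highest, the D libraries lay close together, and G1 and the P libraries were the lowest. P1, P2 and P3 would have held 82.3, 39.8 and 61.1 reads at the mean of the D group.

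hsa-miR-203a-3p had 6 reads in G1, 20 in G2 and 195 in G3. Reads numbered 47, 15 and 28 in the libraries D1, D2 and D3. In P3 there were 56 reads, and P1 and P2 had 0. Its levels were 164, 669 and 1101 CPM in the G group, 1278, 325 and 643 CPM in the D group, and 0, 0 and 1409.6 CPM in the P group. The mean was 645 ± 469 CPM in G, 749 ± 485.5 CPM in D and 469.9 ± 814 CPM in P (SD, n = 3 each). The stages overlapped, and the highest level of all 9 libraries was in P3, where the miRNA ranked 72 of 331 detected. The other P libraries, P1 and P2, had no read where the D mean would have given 40.1 and 19.4, so the P mean rests on P3 alone. Reads in G1 set miR-203a-3p apart from miR-205 and miR-31, which had none there.

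**Figure D1:**
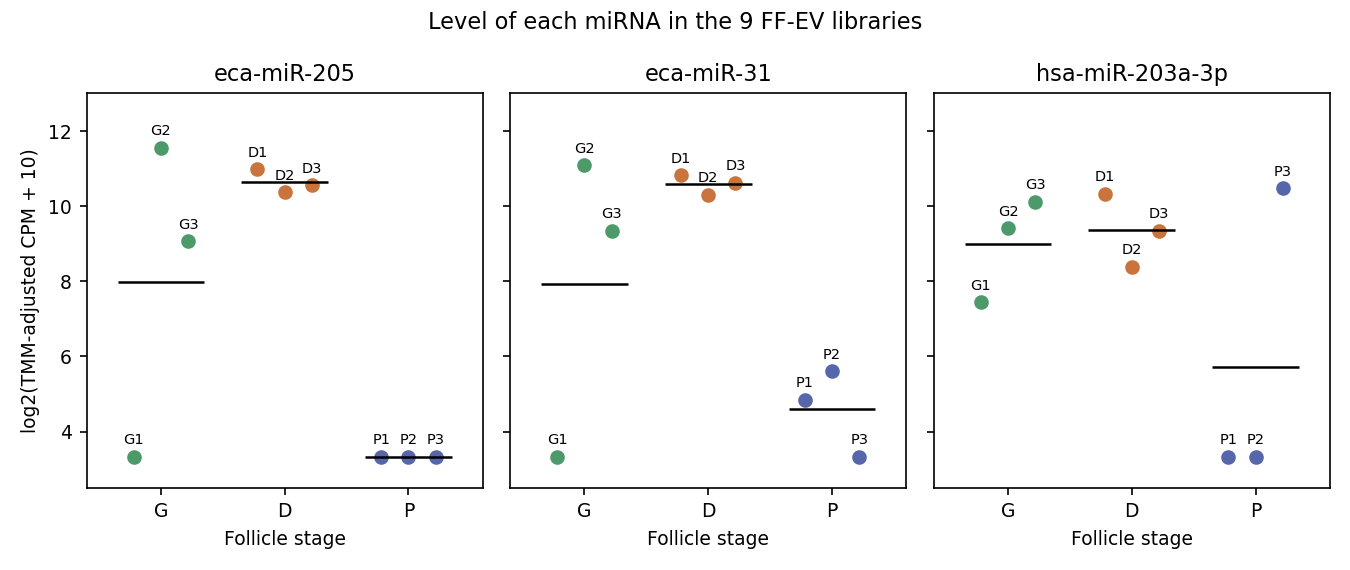
Level of eca-miR-205, eca-miR-31 and hsa-miR-203a-3p as log2(CPM + 10) in each library (point, with its name) by stage on the x axis; the black line is the mean of the 3 libraries of a stage. A library without a read lies at the bottom, as G1 and the 3 P libraries do for miR-205, and P3 is the highest point for miR-203a-3p.

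The table also held 5 other entries of these miRNAs, from other arms or copies. Only 2 of them had any read: hsa-miR-203b-3p had 1 read in G3 and 1 in P1, and hsa-miR-31-3p had 1 read in D1. The passenger arm of miR-205 and the remaining miR-203 entries had 0 reads. Nearly all reads under these 3 names thus stood in the entries described.

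In P vs. D, miR-205 and miR-31 were lower in the P group. One limma model of log2(CPM + 10) covered the 9 libraries, with Benjamini-Hochberg adjustment over 417 miRNAs, and a miRNA was called if its adjusted p was below 0.1 and its level changed 2-fold or more. The log2 fold change of miR-205 was -7.32 (SE 1.63, 95% interval -10.82 to -3.81, adjusted p = 0.0476 by limma), and that of miR-31 was -5.99 (SE 1.60, interval -9.44 to -2.54, adjusted p = 0.0891 by limma). Since the P group had 0 reads of miR-205, its fold change is better read as a bound: with 3 reads allowed over the P group, miR-205 was at least 62.8-fold lower in P than in D. miR-31, with 2 reads in P and 192 in D, was 90.4-fold lower by the depth-scaled ratio of pooled reads (95% interval 24.7 to 752), 141.5-fold lower without P2 and 60.2-fold lower without P3. Over all miRNAs tested, limma called 7 of 417 lower (1.68%), and in 42 of 417 (10.1%) all P libraries lay below all D libraries, as they did for miR-205 and miR-31. The median log2 fold change of all tested miRNAs was 0.16.

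Both calls in P vs. D were lost when any one D or P library was left out. In those fits limma called few miRNAs at all, between 0 of 400 (without P2) and 5 of 406 (without P3) in either direction. With all libraries it called 11 of 417. Without any one D or P library, the log2 fold change of miR-205 stayed between -7.45 and -7.14 but its adjusted p by limma was between 0.102 and 0.164. The bound was then at least 34.6-fold lower in P without P1 and up to 68.7-fold without D2. miR-31 also lost its call without any one D or P library or without G3, with log2 fold changes between -6.50 and -5.36 and adjusted p values between 0.114 and 0.252 by limma. Both miRNAs kept the call without G1, where limma called 8 of 402 miRNAs lower (1.99%). edgeR on the recovered reads called both lower in P (adjusted p = 0.0497 for miR-205 and 0.0581 for miR-31, with 1.44% of all tested miRNAs called lower). DESeq2 also called both lower (adjusted p = 0.00152 for miR-205 and 0.00563 for miR-31, with 5.76% called lower). That share is of all 417 miRNAs, of which 150 had no adjusted p by DESeq2 and could not be called.

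hsa-miR-203a-3p was not called in P vs. D. Its log2 fold change was -3.65 (SE 1.64, interval -7.18 to -0.13, adjusted p = 0.314 by limma), and the pooled reads gave a P to D ratio of 0.661 (95% interval 0.465 to 0.933). Single libraries decided these values. The pooled ratio was 1.1999 without P1 (95% interval 0.844 to 1.69) and 0.981 without D1 (95% interval 0.648 to 1.496). Without P3 the log2 fold change was -6.03 (adjusted p = 0.0911 by limma), and with no read left in the P group the level was at least 18.8-fold lower in P than in D. With P3 included, edgeR gave a log2 fold change of -0.57 and DESeq2 one of -0.62, and neither called the miRNA (adjusted p = 0.882 by edgeR and 0.858 by DESeq2).

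In P vs. G, limma called none of the 3 miRNAs, while it called 1 of 417 miRNAs lower (0.24%). The log2 fold change was -4.66 for miR-205 (interval -8.17 to -1.15, adjusted p = 0.337 by limma), -3.33 for miR-31 (interval -6.78 to 0.12, adjusted p = 0.550 by limma) and -3.28 for miR-203a-3p (interval -6.81 to 0.24, adjusted p = 0.550 by limma). At an unadjusted p under 0.05, 1 of the 3, miR-205, passed, against 31 of 417 miRNAs (7.43%). G1 decided this comparison. Without it, miR-205 was at -6.99 (adjusted p = 0.0148 by limma) and miR-31 at -5.63 (adjusted p = 0.0412 by limma), both lower in P, and 20 of 402 miRNAs (4.98%) were called lower. miR-203a-3p was at -4.06 without G1 (adjusted p = 0.317 by limma). By pooled reads, which weigh G1 by its depth, miR-205 was at least 29.8-fold lower in P than in G, and at least 35.1-fold lower without G1. The bound was 16.4-fold without P1, 17.3-fold without G2, 19.9-fold without P3 and 53.8-fold without G3. miR-31 was 43.8-fold lower in P than in G (95% interval 11.9 to 364, 2 reads against 179), and 68.5-fold lower without P2 but 29.2-fold without P3. With all libraries, edgeR called miR-205 lower (adjusted p = 0.0820) but not miR-31 (adjusted p = 0.179), with 0.48% of tested miRNAs called lower. DESeq2 called both lower (adjusted p = 0.00358 for miR-205 and 0.0234 for miR-31, with 1.92% called lower). That share is of all 417 miRNAs, of which 189 had no adjusted p by DESeq2 and could not be called.

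In D vs. G, no difference larger than the spread between libraries was found for the 3 miRNAs, and limma called 4 of 417 miRNAs in either direction (0.959%). The log2 fold change was 2.66 for miR-205 (interval -0.85 to 6.16, adjusted p = 0.556 by limma), 2.66 for miR-31 (interval -0.79 to 6.11, adjusted p = 0.556 by limma) and 0.37 for miR-203a-3p (interval -3.16 to 3.89, adjusted p = 0.947 by limma). None of the 3 passed at an unadjusted p under 0.05, where 39 of 417 miRNAs did (9.35%), and neither edgeR nor DESeq2 called one. The intervals of miR-205 and miR-31 reach far on the side of higher levels in D and that of miR-203a-3p reaches far on both sides, so the D and G levels are not shown to be alike. Without G2 the log2 fold change was 4.45 for miR-205 (interval 0.91 to 7.98, adjusted p = 0.254 by limma) and 4.24 for miR-31 (interval 0.54 to 7.95, adjusted p = 0.281 by limma). Without G1 the log2 fold change of miR-205 was 0.33 and that of miR-31 was 0.36, and that of miR-203a-3p was -0.41. Over the 3 stages together, the moderated F test of limma passed for miR-205 (adjusted p = 0.0799) but not for miR-31 (adjusted p = 0.180) or miR-203a-3p (adjusted p = 0.460), and 11 of 417 miRNAs passed it (2.64%). That call of miR-205 was lost, leaving 0 of the 3 miRNAs, without G3, P1, P2 or any one D library. It was also lost without P3 (adjusted p = 0.210 by limma), where miR-203a-3p passed (adjusted p = 0.0922 by limma). Without G1 both miR-205 and miR-31 passed, as did 23 of 402 miRNAs (5.72%).

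**Figure D2:**
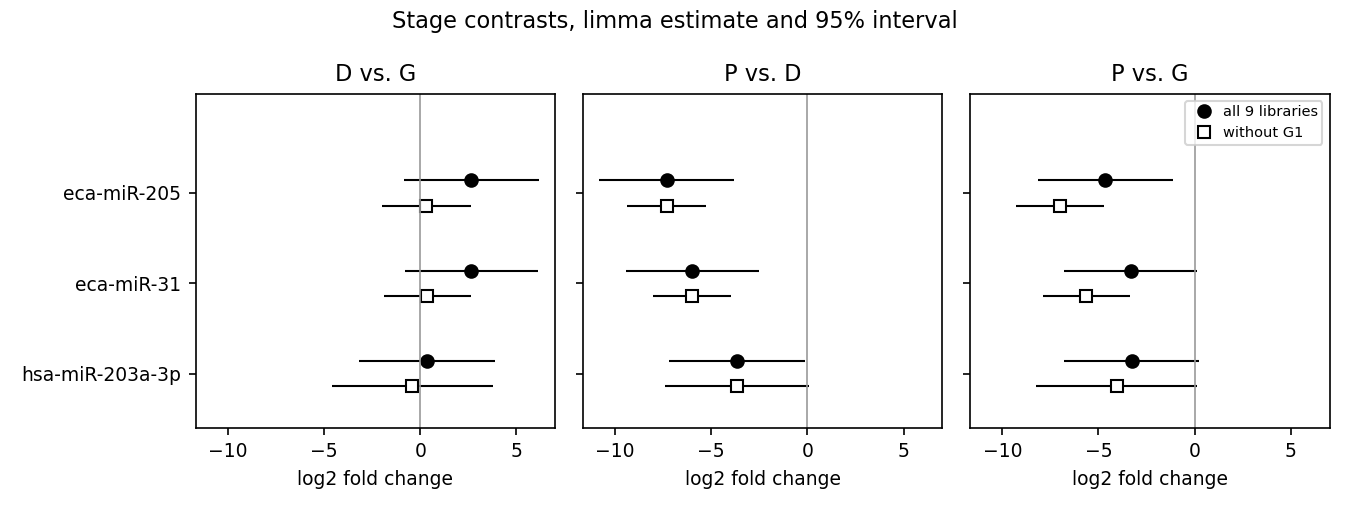
Log2 fold change (x axis) of each miRNA in D vs. G, P vs. D and P vs. G by limma, with lines for the 95% interval, from all 9 libraries (filled circles) and without G1 (open squares). Without G1 the P vs. G estimate of miR-205 lies at -6.99 in place of -4.66 and its interval is shorter, while the intervals of miR-203a-3p in D vs. G span 0 in both fits.

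miR-205 and miR-31 were high and low in the same libraries, and miR-203a-3p went with them in part. On log2(CPM + 10), miR-205 and miR-31 had a Pearson r of 0.978 over the 9 libraries (Spearman rho 0.961), and r was between 0.974 and 0.990 with any one library left out. The points fell into 2 clumps, one with G1 and the P libraries and one with G2, G3 and the D libraries, so that this r rests largely on the distance between the clumps. After each stage mean was taken away r was 0.958, and without G1 as well it was 0.613. Of all 86736 pairs of tested miRNAs, 0.0300% had an r at least as high, and the median r over all pairs was 0.055. All r values here describe libraries from the same 2 animals that differ in depth, and no p-value is given.

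In the libraries that held both, miR-205 and miR-31 were present in nearly equal read numbers. The ratio of miR-205 to miR-31 reads within a library, which does not depend on the scaling, was between 0.816 in G3 (95% interval 0.614 to 1.08) and 1.38 in G2 (95% interval 0.995 to 1.94) over 5 libraries, with a median of 1.05. The D libraries gave ratios of 1.12, 1.05 and 0.956 in D1, D2 and D3. The intervals of all 5 ratios include 1. Over the whole data set, 3 of 417 miRNAs had at most 1 read in each P library and at least 10 reads in each D library: miR-205, miR-31 and eca-miR-142-3p, limits that were set after these values were seen.

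hsa-miR-203a-3p correlated less with the other two. Its r was 0.615 with miR-205 (Spearman rho 0.428) and 0.464 with miR-31 (Spearman rho 0.261), and 6.64% and 15.1% of all pairs had an r as high. P3 weighed most on both: without it r was 0.852 with miR-205 and 0.756 with miR-31. After the stage means were taken away, r was 0.278 with miR-205 and 0.039 with miR-31, and without G1 as well it was -0.027 with miR-205 and -0.731 with miR-31. The reads of miR-203a-3p per read of miR-31 ranged from 0.259 in D2 (95% interval 0.136 to 0.462) to 1.71 in G3 (95% interval 1.35 to 2.17), intervals that do not overlap. Per read of miR-205 they ranged from 0.222 in G2 (95% interval 0.130 to 0.364) to 2.10 in G3 (95% interval 1.63 to 2.71), with a median of 0.431. The proportion of miR-203a-3p thus varied even among libraries where all 3 miRNAs were present.

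**Figure D3:**
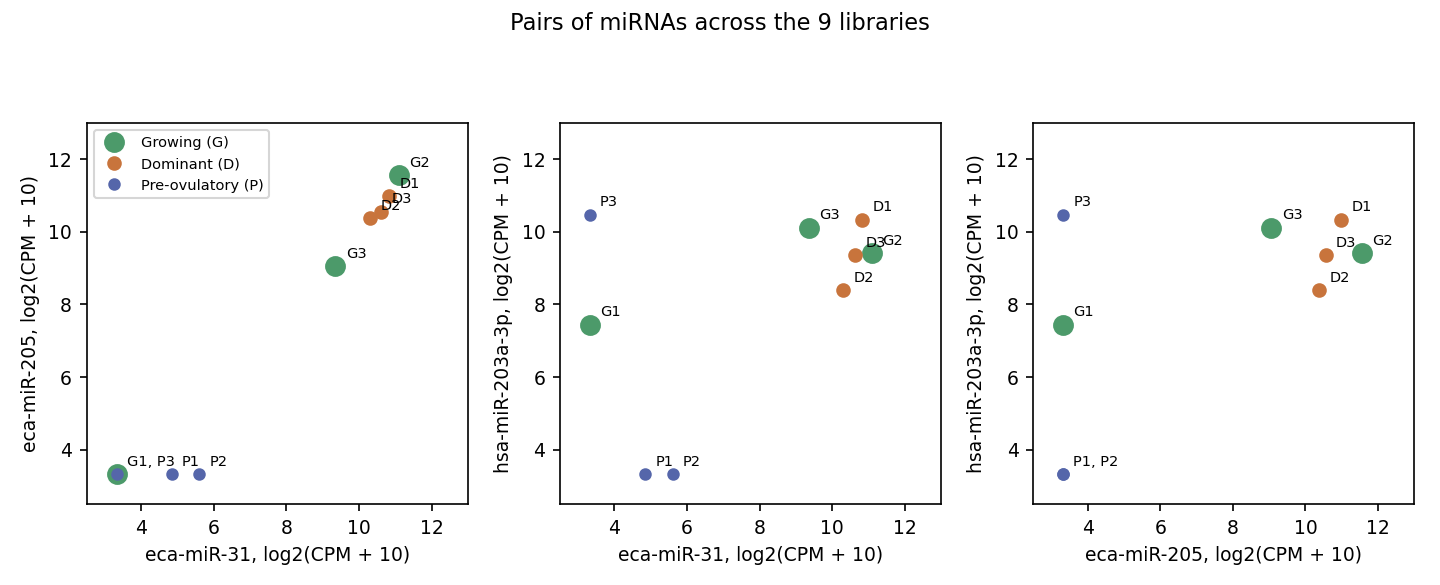
Each miRNA against another as log2(CPM + 10), 1 point per library, colored by stage (G points are drawn larger, and a library at the same place as another lies on top of it). miR-205 and miR-31 lie near a line (r = 0.978), with G1 and the P libraries at the low end; against miR-203a-3p, P3 and G1 lie off to the left.

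For each of the 3 miRNAs, the 5 tested miRNAs with the most similar levels over the 9 libraries were listed by Pearson r. For miR-205 these were miR-31 (0.978), eca-miR-142-5p (0.930), eca-miR-92a (0.908), eca-miR-142-3p (0.894) and eca-miR-20a (0.889). For miR-31 they were miR-205 (0.978), eca-miR-142-5p (0.912), eca-miR-21 (0.907), bta-miR-17-5p (0.892) and eca-miR-23a (0.884). miR-142 is a miRNA of blood-forming cells, and miR-17, miR-20a and miR-92a are made from one cluster that is active in proliferating cells. eca-miR-142-3p had 3 reads in G1, 11 in G2 and 12 in G3, between 11 and 14 in each D library, and 0 in each P library, and limma called it lower in P vs. D (adjusted p = 0.0476), with a level at least 11.9-fold lower in P than in D. In CPM, eca-miR-142-3p was at 82.0, 368 and 67.7 in G1, G2 and G3, so G1 was not its lowest G library. bta-miR-142-5p, not among the neighbours, was highest of the G group in G1, at 792 CPM against 603 in G2 and 293 in G3. eca-miR-142-5p, at 0 in each P library and in G1, had only 1 to 18 reads in the other libraries.

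The neighbours of miR-203a-3p were other miRNAs: eca-miR-191a (0.906), eca-miR-29a (0.893), eca-miR-342-3p (0.765), hsa-miR-181a-3p (0.758) and bta-miR-11976 (0.746). None of these was on the list of miR-205 or of miR-31, while eca-miR-142-5p was on both of those. eca-miR-191a, with 77 reads in P1 and 24 in P2, was also highest among the P libraries in P3. eca-miR-29a had 1, 1 and 11 reads there, against 4, 21 and 265 in the G libraries. The sequences of the neighbours that the study lists are shown so that their seeds can be set beside those of miR-205 and miR-31.
eca-miR-92a: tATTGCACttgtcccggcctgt
eca-miR-20a: tAAAGTGCttatagtgcaggtag
eca-miR-23a: aTCACATTgccagggatttcc
None of these seeds is that of miR-205 or miR-31, and neighbours whose sequences are not shown were not compared.

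**Figure D4:**
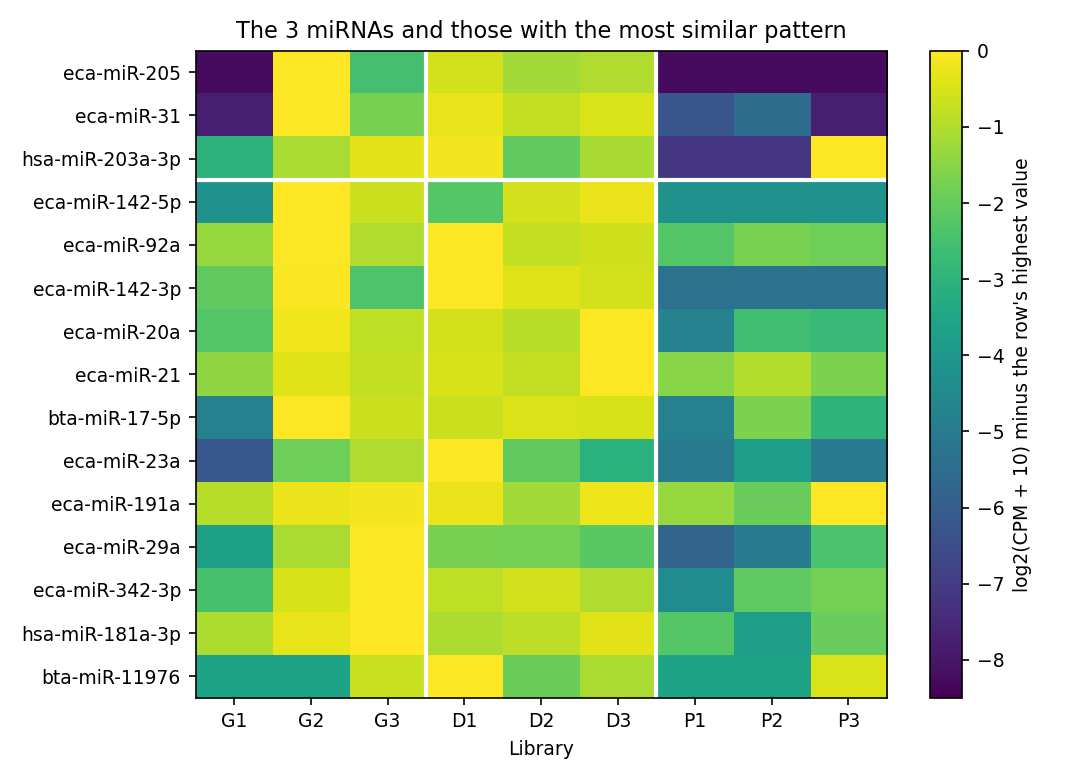
Levels of the 3 miRNAs (above the white line) and of their neighbours in the 9 libraries, as log2(CPM + 10) minus the highest value of the same miRNA, so that the library with the most is at 0. miR-205, miR-31 and the eca-miR-142 entries are low in G1 or in all P libraries, and miR-203a-3p, eca-miR-191a and bta-miR-11976 are high in P3.

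In a list of other epithelial miRNAs, 1 entry was called lower in P vs. D and 1 was called higher. The list held the miR-200 family (miR-200a, miR-200b, miR-200c, miR-141 and miR-429), which represses ZEB1 and ZEB2 as miR-205 does, the miR-183 cluster of sensory and other epithelia, and miR-184, a miRNA of the corneal epithelium. Of its 22 entries 17 had reads and 15 were tested, and the entry called lower was eca-miR-200a (log2 fold change -5.92, adjusted p = 0.0588 by limma). The entry called higher was eca-miR-184, with 6895, 10126 and 6645 CPM in P1, P2 and P3, against 0, 0 and 1080.1 CPM in D1, D2 and D3 (log2 fold change 7.34, adjusted p = 0.0359 by limma). Over all tested miRNAs 1.68% were called lower and 0.959% were called higher in P vs. D. Of the 17 entries with reads, 2 were at 0 over the P group, bta-miR-183 and hsa-miR-182-3p, and none over D. The share of all miRNAs at 0 over P was not worked out. bta-miR-183 had 19 reads in D and was at least 5.96-fold lower in P, and hsa-miR-182-3p was also at 0 over G. The median log2 fold change of the list was -0.01 with 8 of 15 below 0, against 3 of 3 below 0 and a median of -5.99 for the miRNAs described here (-5.97 with miR-205 at its bound). Its summed level was between 12017 and 31181 CPM in G, between 4781 and 12663 CPM in D and between 10622 and 15995 CPM in P, with its lowest value in D. The abundant entries eca-miR-200b (log2 fold change -1.80, adjusted p = 0.616 by limma) and bta-miR-200b (1.57, adjusted p = 0.627 by limma) did not pass the test, and entries of one miRNA from different species may share reads.

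The summed level of leukocyte miRNAs, and that of red blood cell miRNAs, was lower in every P library than in every D library, as were miR-205 and miR-31. The same held for the summed level of the granulosa miRNAs that respond to luteinizing hormone, between 24190 and 39653 CPM in P and between 39915 and 74413 CPM in D, and for that of the liver miRNA, between 12213 and 17796 CPM in P and between 20499 and 43082 CPM in D. Taken singly, 42 of 417 tested miRNAs (10.1%) had all P libraries below all D libraries. Most of the granulosa sum was miR-21, with means in D of 45580 CPM for eca-miR-21 and 10100 CPM for bta-miR-21-5p. The mean of eca-miR-132 was 141.5 CPM in D and 134.0 CPM in P. Of 12 leukocyte entries (miR-142, miR-223, miR-150 and miR-155) 9 were tested, and all 9 had a log2 fold change below 0 in P vs. D, with a median of -3.11 (-2.75 with entries that had 0 reads in P at their bound of 3 reads) and 2 called lower, eca-miR-142-3p and bta-miR-142-5p. Over all tested miRNAs the median was 0.16, and 7 of 417 (1.68%) were called lower. The summed leukocyte level was between 1448 and 3682 CPM in G, with G1 the lowest, between 3699 and 9433 CPM in D and between 766 and 1198 CPM in P. Other abundant leukocyte entries were eca-miR-155 at -3.19 (adjusted p = 0.308 by limma) and hsa-miR-223-5p at -3.13 (adjusted p = 0.316 by limma). Of the 10 leukocyte entries with reads, 3 were at 0 over the P group (eca-miR-142-3p, eca-miR-142-5p and hsa-miR-150-3p), and none was at 0 over G or over D. In the red blood cell list and in the granulosa list, 1 of 7 entries with reads was at 0 over P. How many of all miRNAs were at 0 over P was not counted. Of 9 red blood cell entries (miR-451, miR-486 and miR-144) 5 were tested, with a median of -2.64 and 1 called lower, eca-miR-486-5p (log2 fold change -2.90, adjusted p = 0.0476 by limma). bta-miR-451, the most abundant of them, was at -1.22 (adjusted p = 0.314 by limma) and eca-miR-486-3p was at -2.64 (adjusted p = 0.375 by limma). The red blood cell sum was between 37593 and 159300 CPM in G, with G1 the highest. It was between 82089 and 214200 CPM in D and between 33508 and 57460 CPM in P. The liver miRNA was also highest of the G group in G1, at 20244 CPM, and the granulosa sum was lowest there, at 30161 CPM. miR-205 and miR-31 had 0 reads in G1. The part of leukocytes and red blood cells in the levels of miR-205 and miR-31 was not tested. In pooled EV RNA, fewer vesicles or cells of one kind and less miRNA in each cannot be told apart.

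In the remaining lists no entry was called in P vs. D. All 11 stroma and smooth muscle entries (miR-143, miR-145, miR-199a, miR-199b and miR-214) were tested, and the median log2 fold change was 2.25 (1.61 with entries that had 0 reads in D at their bound) with 2 of 11 below 0. The summed level of this list was higher in every P library than in every D library. It was between 31151 and 35971 CPM in P, between 9261 and 30245 CPM in D and between 10511 and 32124 CPM in G. eca-miR-143 was at 1.06, bta-miR-143 at 1.61 and eca-miR-199a-3p at 0.80 (adjusted p = 0.345, 0.308 and 0.565 by limma). Of the granulosa miRNAs known to respond to luteinizing hormone (miR-21, miR-132 and miR-212) 6 entries were tested, and the median was -0.34. eca-miR-21 was at -0.95, bta-miR-21-5p at -0.48 and eca-miR-132 at -0.20 (adjusted p = 0.316, 0.707 and 0.975 by limma). eca-miR-122, the liver miRNA, was at -1.005 (adjusted p = 0.327 by limma).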

How the data were processed

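According to the methods, the authors trimmed adapters and low-quality bases and counted reads matching horse, cattle or human miRNAs of miRBase with CLC Genomics Workbench, allowing up to 2 mismatches and giving horse entries priority. The submitters' notes also name bcl2fastq and DESeq2. The values the authors deposited are signal values, CPM adjusted by TMM, so library totals differ. Every deposited value was a whole multiple of the smallest value of its library (100% within 0.01 of a read), which gave back the reads.

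Tested were 417 miRNAs above 10 CPM in at least 2 of the 3 replicates of a group. limma 3.58.1 (R 4.3.3) with a trended variance was run on log2(CPM + 10), and log2 fold changes are on that scale, which understates those of low miRNAs. The recovered reads were tested with DESeq2 1.42.0 and with the quasi-likelihood test of edgeR 4.0.16 as alternatives. DESeq2 gave no adjusted p for 70 miRNAs in D vs. G, 150 in P vs. D and 189 in P vs. G. Folds against a group with 0 reads use 3 reads over the group, and intervals are exact binomial ones at 95%. Of these steps, the limma and edgeR fits of P vs. D were tested on simulated reads.

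Named were the 3 miRNAs, other entries of theirs with reads, the 5 tested miRNAs with the highest r to each, and up to 3 abundant members of each marker list. eca-miR-200a, outside this rule, was added as the other called entry of its list, and zero epithelial entries and called or zero leukocyte entries likewise. The 3 miRNAs and the lists were chosen with earlier results of these data known. Figures were drawn with matplotlib 3.10.9 in Python 3.11.15.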

Additional observations from a re-analysis of the deposited data

How the results depend on the processing

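Of the 3 miRNAs, limma called 2 in P vs. D but 0 in P vs. G or D vs. G, and 1 passed the F test. In P vs. D, 1 was called with a pseudocount of 1, at an adjusted p under 0.05, without the variance trend and with scaling to the total sum, and 0 to 2 without a single library. Of 417 miRNAs, limma called 7 lower with the pseudocount of 1, 5 at 0.05, 6 without the trend and 3 with total-sum scaling. In P vs. G, 1 was called by edgeR, 2 by DESeq2, and 0 to 2 without a single library. After the data had been seen, G1 and D2 were left out together, and edgeR and DESeq2 were run without G1, and each gave 2 in P vs. G. Over all miRNAs, 23 of 390 were called lower in P vs. G without G1 and D2, and 7 of 402 by edgeR without G1. In D vs. G, 0 were called in all 24 alternatives. By the F test, 0 passed with a pseudocount of 50, at 0.05, without the trend, with total-sum scaling and with entries of the same name summed, 2 passed by DESeq2 and without G1 and D2, and 0 to 2 without a single library. Over all miRNAs, 36 of 417 passed by DESeq2 and 26 of 390 without G1 and D2. Some differences in D vs. G, all far from the threshold, changed sign: miR-205 was at -0.12 (edgeR) and -0.19 (DESeq2) without G1, and miR-203a-3p at -0.10 with total-sum scaling, -0.19 by edgeR without G1, and -0.41 to 0.93 without a single library. Total-sum scaling moved the median of all miRNAs by -0.34 in D vs. G, 0.54 in P vs. D and 0.26 in P vs. G. A fit without a library had 2 left in its stage, and in P vs. G the count rose to 2 without G1. The cause of these changes was not tested. With the replicate block, 2 were called in P vs. D, 0 in the other comparisons, and 1 passed the F test. Deviations from the stage mean correlated at -0.06 to 0.14 for libraries of the same number and exceeded 0.1 in 2 of 9 pairs. For different numbers they correlated at -0.19 to 0.05 and exceeded 0.1 in 0 of 18 pairs. Whether the numbers pair the libraries cannot be told from correlations this small in so few libraries. At these depths, a 0 in P2 could hide a level of up to 115.9 CPM.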
